A study of Mus musculus with 7 samples.

Results

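A set of 10 genes that mark resident-type scavenger macrophages was followed across 7 tumour libraries. The genes are Cd163, Stab1, Folr2, Mrc1, Clec10a, Mgl2, Fcna, F13a1, Pf4 and Maf, found by symbol among the 55487 genes of the deposited table, and all 10 were measured. They were selected on results already known from these libraries, the TPM values and group differences given here, so those values describe the genes and carry no test. The tumours grew from 4T1-12b(luc) cells, a luciferase-carrying line of mouse mammary carcinoma, placed in the mammary fat pad of wild-type (WT) mice of strain BALB/c, and are labelled day 12. From about 150 mm3 onwards each received 6 intratumoral injections of 50 µl, one every other day. The TIS sEV tumours (3 libraries) received small extracellular vesicles, membrane particles shed by cells, of 4T1 cells that had been treated with nocodazole at 100 ng/ml for 72 h to induce senescence and then released. The Cont sEV tumour (1 library) received vesicles of 4T1 cells treated with DMSO, and the Saline tumours (3 libraries) received saline. The age of the mice is not given, and the labels do not say that replicates are separate animals, so p-values measure only the spread between these libraries, which may be technical. The columns of both vesicle groups carry abbreviations that were matched to the labels through the treatment protocol, and each statement on those groups rests on that match.

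Macrophages that settle in a tissue and renew there carry a set of uptake receptors, by which they are told apart from newly arrived monocytes in many mouse organs. They clear haemoglobin, modified lipoproteins, glycoproteins and dying cells, and they secrete proteins that act on clotting and complement. In tumours, cells with such receptors are found beside more numerous macrophages that derive from monocytes.

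Upstream sequence is shown for the 4 genes that hold a PU box, the core motif of the macrophage factor PU.1, because they make up the part of the set with a macrophage motif near the start. The windows ran from 250 bases before to 50 bases after each start in the RefSeq table, build GRCm38.p6. Of the 10 genes 8 were in that table, with 10 windows between them, and Clec10a and Maf were not. The motifs searched, on both strands, were GAGGAAG for the PU box and TGCTGAC for the half-site of Maf proteins, and they do not overlap each other. The PU box was in 5 of the 10 windows, those of Mrc1, Fcna and Pf4 and both of F13a1, and in 13.6% of all 32851 windows. The Maf half-site was in 1 window, that of Fcna, and in 4.67% of all windows. The 250 bases before the first start of each gene follow, 5′ to 3′ along the gene, with every motif match in capitals. CTTCCTC is the PU box on the opposite strand.
Mrc1 chr2:14229164-14229413 (+ strand): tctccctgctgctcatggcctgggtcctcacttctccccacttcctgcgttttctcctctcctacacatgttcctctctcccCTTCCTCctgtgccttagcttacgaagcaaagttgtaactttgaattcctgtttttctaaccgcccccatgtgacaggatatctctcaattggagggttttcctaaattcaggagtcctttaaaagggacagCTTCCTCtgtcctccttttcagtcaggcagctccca
Fcna chr2:25627975-25628224 (- strand): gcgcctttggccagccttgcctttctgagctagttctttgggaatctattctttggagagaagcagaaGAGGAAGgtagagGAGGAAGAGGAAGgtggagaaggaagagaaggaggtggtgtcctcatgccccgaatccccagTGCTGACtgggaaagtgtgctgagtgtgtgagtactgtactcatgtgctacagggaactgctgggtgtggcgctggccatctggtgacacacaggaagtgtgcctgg
Pf4 chr5:90772185-90772434 (+ strand): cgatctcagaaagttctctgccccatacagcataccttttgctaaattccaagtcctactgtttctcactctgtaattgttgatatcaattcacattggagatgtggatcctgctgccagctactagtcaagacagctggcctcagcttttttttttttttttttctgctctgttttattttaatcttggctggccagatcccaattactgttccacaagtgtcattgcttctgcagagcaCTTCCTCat
F13a1 chr13:37050245-37050494 (- strand): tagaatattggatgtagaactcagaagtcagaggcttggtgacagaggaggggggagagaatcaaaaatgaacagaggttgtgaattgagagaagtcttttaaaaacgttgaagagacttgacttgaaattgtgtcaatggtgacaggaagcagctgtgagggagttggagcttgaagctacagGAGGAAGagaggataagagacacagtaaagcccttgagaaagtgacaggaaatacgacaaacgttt
Fcna held 3 PU boxes, the last of which overlaps the one before it, and 1 Maf half-site, and Mrc1 held 2 PU boxes. A match describes the letters and not the binding of a factor.

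The values are TPM, the abundance of transcripts per length, with every library brought to the same total, so levels of different genes can be set beside each other. TIS sEV replicate 2 stood apart: nuclear ribosomal RNA made up 22.9% of the TPM there and 0.807% to 2.40% in the other 6 libraries. Nuclear protein-coding genes made up 28.6% there and 56.8% to 74.7% elsewhere. Results that rest on this library are given with and without it. Summed over 12 general macrophage genes, among them Csf1r and C1qa, the level was 936, 937 and 2166 TPM in TIS sEV, 1624 TPM in Cont sEV and 949, 2722 and 1780.2 TPM in Saline. Summed over 8 epithelial genes of the tumour cells, among them Epcam and Krt8, it was 2955, 694 and 3988 TPM in TIS sEV, 4126 TPM in Cont sEV and 2333, 4629 and 5474 TPM in Saline. Both cell types were thus found in every library, and both sums varied among the libraries of a group. In bulk tissue, fewer cells of a type and less RNA per cell cannot be told apart.

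The resident label was set against other genes known from such cells, 18 in all. Lyve1, a hyaluronan receptor of macrophages beside vessels, was at 0.139 to 1.89 TPM over the 7 libraries. Timd4, a receptor for dying cells, was at 0.0289 to 0.315 TPM, and Vsig4, a complement receptor, at 0 to 1.57 TPM. Cd209b, Cd209f, Cd209g, Slco2b1 and Mertk were low too, with highest values of 0.900, 1.41, 1.14, 0.312 and 1.98 TPM. Others were well above these, among them the chemokine Ccl8 at 197 to 2115 TPM, the reductase Cbr2 at 22.5 to 178 TPM and the selenium carrier Selenop at 23.3 to 147 TPM. Of the 18 genes, 10 reached 1 TPM in at least 3 libraries. The lowest value of any of the 10 scavenger genes was 2.05 TPM, for Mgl2.

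The 10 genes differed widely in level. Over all 7 libraries Stab1 averaged 96.1 ± 61.0 TPM, Pf4 62.0 ± 37.0 TPM, Mrc1 38.6 ± 20.6 TPM, Folr2 19.5 ± 12.0 TPM and Fcna 18.4 ± 13.8 TPM (SD, n = 7). Cd163 averaged 14.0 ± 10.6 TPM, F13a1 13 ± 5.55 TPM, Clec10a 9.51 ± 14.9 TPM, Mgl2 5.06 ± 2.40 TPM and Maf 4.25 ± 1.93 TPM (SD, n = 7). Of neighbours in this order, Mrc1 was above Folr2 in all 7 libraries, and every other pair changed places in at least 1 library.

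Cd163, the receptor for haemoglobin bound to haptoglobin (chromosome 6, 124304656 to 124330527, GRCm38), was at 18.9, 32.5 and 16.5 TPM in TIS sEV, 5.80 TPM in Cont sEV and 4.46, 17.1 and 2.60 TPM in Saline. Every TIS sEV library was above Cont sEV and above Saline replicates 1 and 3, and Saline replicate 2 lay within the TIS sEV range. The mean was 22.6 ± 8.61 TPM in TIS sEV and 8.05 ± 7.88 TPM in Saline (SD, n = 3 each). Because the median of the 12058 tested genes itself shifted by -0.62 on the log2(TPM + 1) scale, TIS sEV minus Saline, differences are given on that scale relative to this median gene. For Cd163 the difference was 2.30 (SE 0.66), and it was 1.59 without TIS sEV replicate 2 and 2.90 without Saline replicate 2.

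Folr2, the folate receptor beta (chromosome 7, 101839988 to 101857194), was at 23.1, 20.2 and 27.0 TPM in TIS sEV, 12.2 TPM in Cont sEV and 9.61, 39.9 and 4.49 TPM in Saline. The TIS sEV libraries lay close together, while Saline held both the highest and the lowest of all 7. The mean was 23.4 ± 3.44 TPM in TIS sEV and 18.0 ± 19.1 TPM in Saline (SD, n = 3 each). The difference relative to the median gene was 1.48 (SE 0.66), and 0.76 without Saline replicate 3 against 2.21 without Saline replicate 2. Of the runs of 31 bases in the Folr2 transcripts, 56.9% also occur, with both strands searched, in Gm10602, an antisense gene that overlaps Folr2. Gm10602 was at 0.139 to 0.345 TPM. The level of Folr2 is uncertain to the extent that reads were split between them without regard to strand.

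Stab1, which encodes the clearance receptor stabilin-1 (chromosome 14, 31139013 to 31168641), was at 66.4, 48.2 and 205 TPM in TIS sEV, 146 TPM in Cont sEV and 46.1, 111 and 50.7 TPM in Saline. TIS sEV replicate 3 and Cont sEV were the highest libraries, and the TIS sEV and Saline ranges overlapped. The difference relative to the median gene was 1.06 (SE 0.63), and 0.58 without TIS sEV replicate 3. Some endothelial cells also make Stab1. Summed over 11 endothelial genes the level was 51.6, 13.7 and 144 TPM in TIS sEV, 88.0 TPM in Cont sEV and 50.7, 65.1 and 48.9 TPM in Saline, so TIS sEV replicate 3 and Cont sEV were highest for this sum too. The gene Egfl7 alone made up 79.4 TPM of it in TIS sEV replicate 3 and 62.7 TPM in Cont sEV. Of the 5 tested genes of the list, Pecam1, Cdh5 and Emcn were lower in Cont sEV than in Saline replicate 2, and Egfl7 and Cldn5 were higher. Of the 11 genes 5 were under 1 TPM in every library. The lymphatic regulator Prox1 was at 0 to 0.00990 TPM, the lymphatic receptor Flt4 at 0 to 0.568 TPM, and the vessel junction genes Pecam1 and Cdh5 at 1.59 to 23.2 and 0.482 to 8.42 TPM. The part of endothelial cells in the Stab1 level was not tested.

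**Figure D1:**
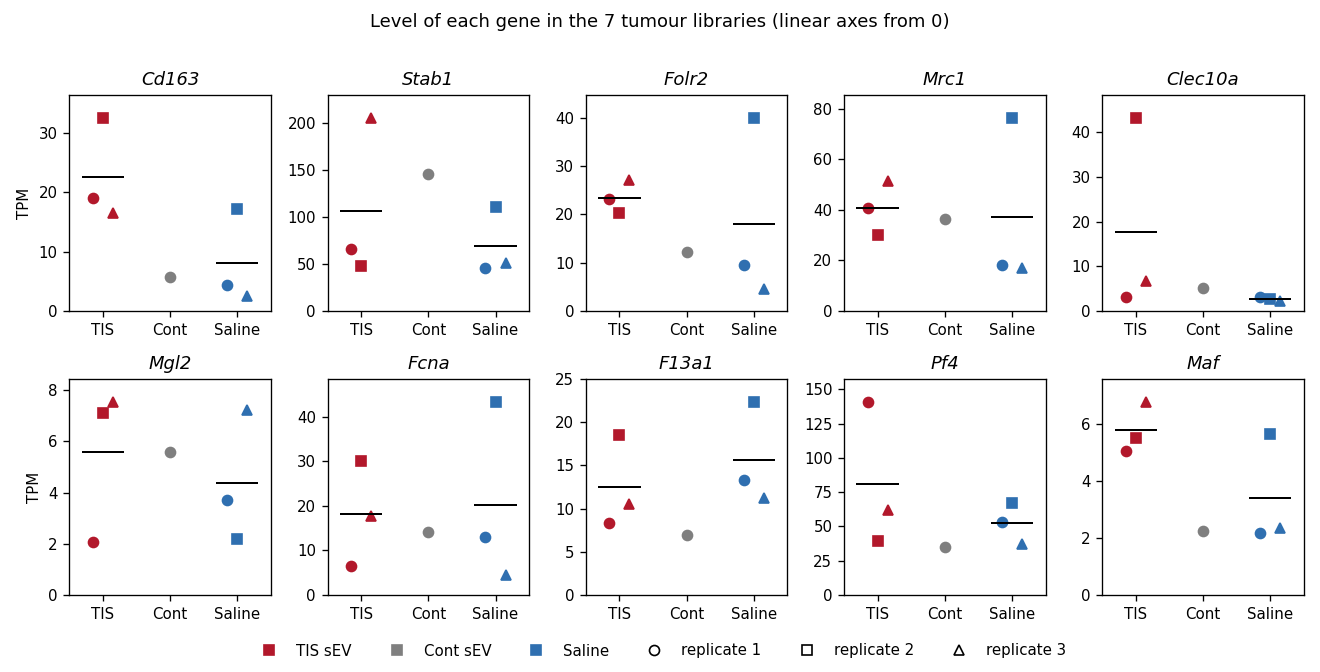
TPM of each of the 10 genes (linear vertical axis from 0) in the TIS sEV, Cont sEV and Saline libraries. Points are libraries, with a symbol for each replicate number, and black bars are the means of the 3 TIS sEV and of the 3 Saline libraries. Saline replicate 2 lies apart from the other Saline libraries for Cd163, Folr2, Mrc1, Fcna and Maf, and TIS sEV replicate 2 lies apart for Clec10a, at 43.2 TPM.

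Among the lectins, Mrc1, the mannose receptor (chromosome 2, 14229392 to 14332057), was at 40.6, 30.2 and 51.5 TPM in TIS sEV, 36.5 TPM in Cont sEV and 18.3, 76.2 and 16.9 TPM in Saline. The TIS sEV libraries were all above Saline replicates 1 and 3 and all below Saline replicate 2. The mean was 40.8 ± 10.7 TPM in TIS sEV and 37.2 ± 33.8 TPM in Saline (SD, n = 3 each), a gap smaller than the spread within Saline. The difference relative to the median gene was 1.06 (SE 0.65), or 0.62 with Saline replicate 3 left out and 1.67 with Saline replicate 2 left out.

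Clec10a and Mgl2 encode lectins for galactose-type sugars and lie side by side on chromosome 11, at 70156197 to 70170834 and at 70130329 to 70137550. Clec10a was at 3.21, 43.2 and 6.78 TPM in TIS sEV, 5.21 TPM in Cont sEV and 3.13, 2.71 and 2.30 TPM in Saline. It was the 1 gene of the 10 whose TIS sEV libraries all lay above all Saline libraries, where 0.862% of all tested genes lay so, and TIS sEV replicate 1 was barely above Saline replicate 1. The difference relative to the median gene was 2.23 (SE 0.62), and 0.82 without TIS sEV replicate 2. Mgl2 was at 2.05, 7.13 and 7.54 TPM in TIS sEV, 5.58 TPM in Cont sEV and 3.70, 2.19 and 7.23 TPM in Saline. All Saline values of Mgl2 lay within the TIS sEV range, and its difference was 0.88 (SE 0.61). That value was 0.23 with TIS sEV replicate 2 left out, 0.48 with Saline replicate 2 left out and 1.64 with TIS sEV replicate 1 left out.

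The transcripts of Clec10a and Mgl2 have 419 runs of 31 bases in common. Runs found in any other gene made up 14.8% of those of Clec10a and 22.8% of those of Mgl2, so the split of reads between these lectins is uncertain. Their sum, which depends less on that split, was 5.26, 50.3 and 14.3 TPM in TIS sEV, 10.8 TPM in Cont sEV and 6.83, 4.90 and 9.53 TPM in Saline. On the sum, TIS sEV replicate 1 lay within the Saline range. Dendritic cells can carry both lectins, and TIS sEV replicate 2, highest for Clec10a, was also highest for a few genes of other cells. The dendritic cell lectin Cd209a was at 0.856, 2.82 and 0.453 TPM in TIS sEV, 0.161 TPM in Cont sEV and 0.946, 0.155 and 0.143 TPM in Saline, and the fat cell genes Adipoq and Cfd were at 2.52 and 37.9 TPM in that library. Summed over 10 dendritic cell genes the level was 136, 46.4 and 119 TPM in TIS sEV, 89.1 TPM in Cont sEV and 114, 159.9 and 162 TPM in Saline, most of it from Fscn1 and Cd24a, which other cells also make. The dendritic cell receptor Flt3 was at 0.0155 to 0.194 TPM and the factor Zbtb46 at 0.155 to 2.08 TPM. Summed over 7 fat cell genes it was 9.23, 73.5 and 39.2 TPM in TIS sEV, 28.5 TPM in Cont sEV and 13.9, 16.8 and 24.2 TPM in Saline, with TIS sEV replicate 2 the highest. The part of such cells in the Clec10a level was not tested.

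Of the secreted proteins, Fcna encodes ficolin A, a soluble lectin that starts complement (chromosome 2, 25624666 to 25628030), and was at 6.46, 30.2 and 17.8 TPM in TIS sEV, 14.1 TPM in Cont sEV and 13, 43.3 and 4.40 TPM in Saline. Saline held both its highest and its lowest library. Its difference relative to the median gene was 0.74 (SE 0.66), and -0.14 without TIS sEV replicate 2 and -0.07 without Saline replicate 3.

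F13a1, the catalytic subunit of the fibrin-linking factor XIII (chromosome 13, 36867178 to 37050244), was at 8.35, 18.5 and 10.5 TPM in TIS sEV, 6.98 TPM in Cont sEV and 13.3, 22.3 and 11.3 TPM in Saline. The groups overlapped, and the mean was 12.5 ± 5.34 TPM in TIS sEV and 15.6 ± 5.90 TPM in Saline (SD, n = 3 each). Relative to the median gene the difference was 0.30 (SE 0.66), and -0.43 without TIS sEV replicate 2 and -0.19 with no filter on low genes.

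Pf4, a chemokine of platelets that macrophages also make (chromosome 5, 90772435 to 90773383), was at 141, 39.3 and 62.0 TPM in TIS sEV, 34.7 TPM in Cont sEV and 53.2, 67.4 and 36.8 TPM in Saline. TIS sEV replicate 1 was above all other libraries, and the other TIS sEV libraries lay within the Saline range. The difference relative to the median gene was 1.07 (SE 0.64). Platelet genes were low: 7 of 10 were under 1 TPM in every library. Summed over the 10 the level was 5.99, 1.11 and 6.26 TPM in TIS sEV, 3.68 TPM in Cont sEV and 7.72, 3.42 and 2.75 TPM in Saline. The platelet chemokine Ppbp was above 1 TPM in TIS sEV replicate 1, the library highest for Pf4, and in Saline replicate 1, and at 0.144 to 0.309 TPM in the other 5. The platelet integrin Itga2b was at 0.166 to 4.99 TPM and the platelet glycoprotein Gp9 at 0.0382 to 0.408 TPM. The part of platelets in the Pf4 level was not tested.

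Maf, a transcription factor of macrophage differentiation (chromosome 8, 115682942 to 115707794), was at 5.04, 5.50 and 6.76 TPM in TIS sEV, 2.25 TPM in Cont sEV and 2.18, 5.66 and 2.35 TPM in Saline. The TIS sEV libraries were close together and above Cont sEV and Saline replicates 1 and 3, with Saline replicate 2 among them. The mean was 5.77 ± 0.889 TPM in TIS sEV and 3.40 ± 1.96 TPM in Saline (SD, n = 3 each), and the difference relative to the median gene was 1.32 (SE 0.59). T cells make Maf as well. The T cell genes Cd3e and Cd4 were at 0 to 2.51 and 0.183 to 0.671 TPM, and summed over 10 T cell genes the level was 39.1, 9.88 and 63.5 TPM in TIS sEV, 20.4 TPM in Cont sEV and 18.3, 26.5 and 34.8 TPM in Saline. The part of T cells in the Maf level was not tested.

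Over the whole set, all 10 differences between TIS sEV and Saline were above the median gene, at 0.30 to 2.30, with a median of 1.07. By definition 50% of all tested genes lie above the median gene. The median over the 10 was 0.88 when TIS sEV replicate 2 was left out, 1.62 when TIS sEV replicate 1 was, and 0.79 when Saline replicate 3 was. With no filter on low genes, which lowers each difference alike, it was 0.58. In TPM as deposited, 8 of the 10 means were higher in TIS sEV, and those of Fcna and F13a1 were lower. In limma, a linear model fitted across all tested genes, 0 of the 10 had an adjusted p under 0.05, where 62 of all 12058 genes did (0.514%), 42 of them higher (0.348%) and 20 lower (0.166%). The limma p-values here and below test the difference before the median gene is subtracted, which was 1.68 for Cd163 and 1.61 for Clec10a. An unadjusted p under 0.05 was found for 2 of the 10, Cd163 and Clec10a, and for 10.3% of all tested genes. Nothing is read from these counts, since the same differences were known when the genes were picked. With TIS sEV replicate 1 left out, Clec10a had a limma adjusted p = 0.0274, within a range of 0.0274 to 0.879 over all alternatives. That fit also called more of all tested genes than the fit on every library, as the last section gives. Without TIS sEV replicate 2, where Clec10a was highest, its limma adjusted p was 0.753.

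The Saline libraries differed among themselves. Saline replicate 2 was above the other Saline libraries for 8 of the 10 genes, all but Clec10a and Mgl2, and was the highest of all 7 libraries for 4, namely Mrc1, Folr2, Fcna and F13a1. Saline replicate 3 was the lowest of all 7 for 5 genes. All TIS sEV libraries were above Saline replicates 1 and 3 for 5 genes, Cd163, Mrc1, Clec10a, Folr2 and Maf, a count that leaves out Saline replicate 2. The shares of all tested genes with these orders of libraries were not computed, and nothing is read from the counts. After division by size factors, which centre the libraries on their common genes, the TIS sEV libraries of Cd163, Pf4 and Maf all lay above all Saline libraries, 3 of 10, where 10.4% of all tested genes did.

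**Figure D2:**
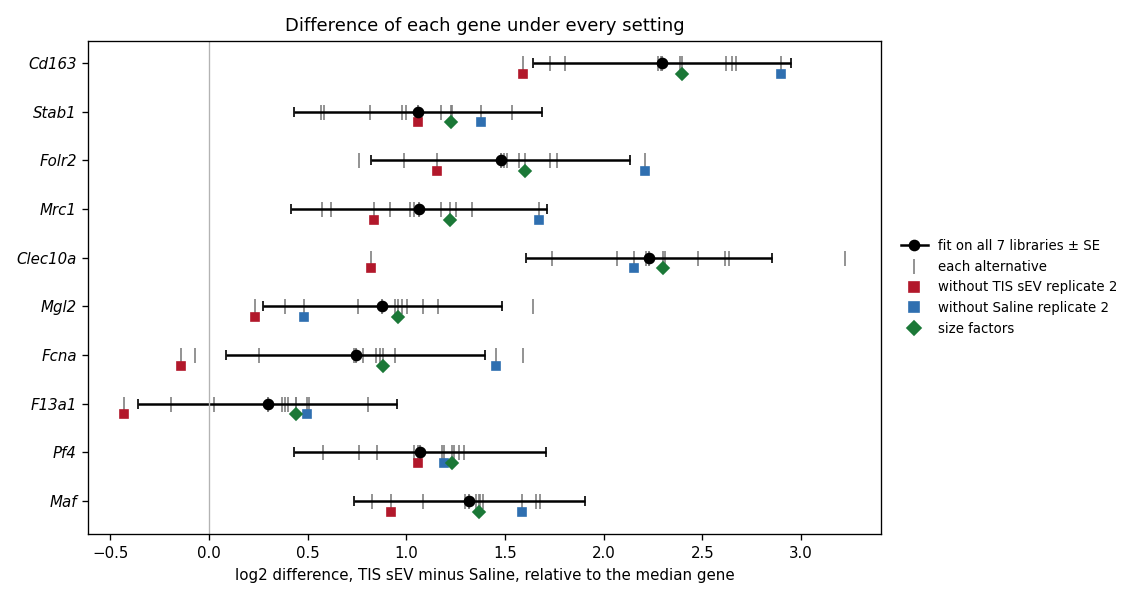
Difference of each gene, TIS sEV minus Saline, on the log2(TPM + 1) scale relative to the median gene, which is marked at 0. Black points and bars give the fit on all 7 libraries with its SE, grey ticks the 13 alternatives, and coloured symbols those without TIS sEV replicate 2, without Saline replicate 2 and with size factors. The SE is that of the difference before the median gene is subtracted. Cd163 stays at 1.59 or above, and Fcna and F13a1 cross 0.

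A second measure set each gene against the 12 general macrophage genes of the same library. It is log2(TPM + 1) of the gene minus the mean log2(TPM + 1) of the 12, so a common scaling of a library largely drops out. For Cd163 it was -1.18, -0.11 and -2.33 in TIS sEV, -3.26 in Cont sEV and -2.92, -2.50 and -4.42 in Saline. For Stab1 it was 0.58, 0.45 and 1.23 in TIS sEV, 1.17 in Cont sEV and 0.19, 0.12 and -0.57 in Saline. For Maf it was -2.90, -2.47 and -3.50 in TIS sEV, -4.33 in Cont sEV and -3.70, -3.95 and -4.52 in Saline. For these 3 genes every TIS sEV library was above every Saline library, where 1.22% of all tested genes lay so, and for the other 7 the groups overlapped.

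The difference of the means on this measure, TIS sEV minus Saline, was 2.07 for Cd163 (pooled SD 1.06), 1.10 for Maf (pooled SD 0.47) and 0.84 for Stab1 (pooled SD 0.42). The other 7 ranged between 0.075 for F13a1 (pooled SD 0.84) and 2.01 for Clec10a (pooled SD 1.63). With TIS sEV replicate 2 left out, the difference was 1.53 for Cd163, 0.85 for Maf and 0.99 for Stab1. It was then 0.76 for Clec10a and 0.16 for Mgl2, and it turned to -0.50 for F13a1 and -0.21 for Fcna. The median over the 10 was 0.85, and 0.57 without Saline replicate 3. The general macrophage genes used for this had a median difference of 0.29 relative to the median gene, with 7 of 12 above it, and of -0.20 with no filter on low genes, and 0 of them passed in limma, with 1 at an unadjusted p under 0.05. Csf1r, the receptor for macrophage growth factor, was at 8.64, 5.48 and 15.7 TPM in TIS sEV, 10.7 TPM in Cont sEV and 6.73, 27.0 and 18.8 TPM in Saline, and Adgre1, which encodes F4/80, at 1.93, 1.10 and 2.84 TPM in TIS sEV, 2.40 TPM in Cont sEV and 1.55, 6.49 and 4.24 TPM in Saline. The phagocyte gene Cd68 was at 27.8 to 79.4 TPM and the complement gene C1qa at 169 to 611 TPM. Csf1r and Adgre1 were highest of all in Saline replicate 2, as Mrc1 and Folr2 were.

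**Figure D3:**
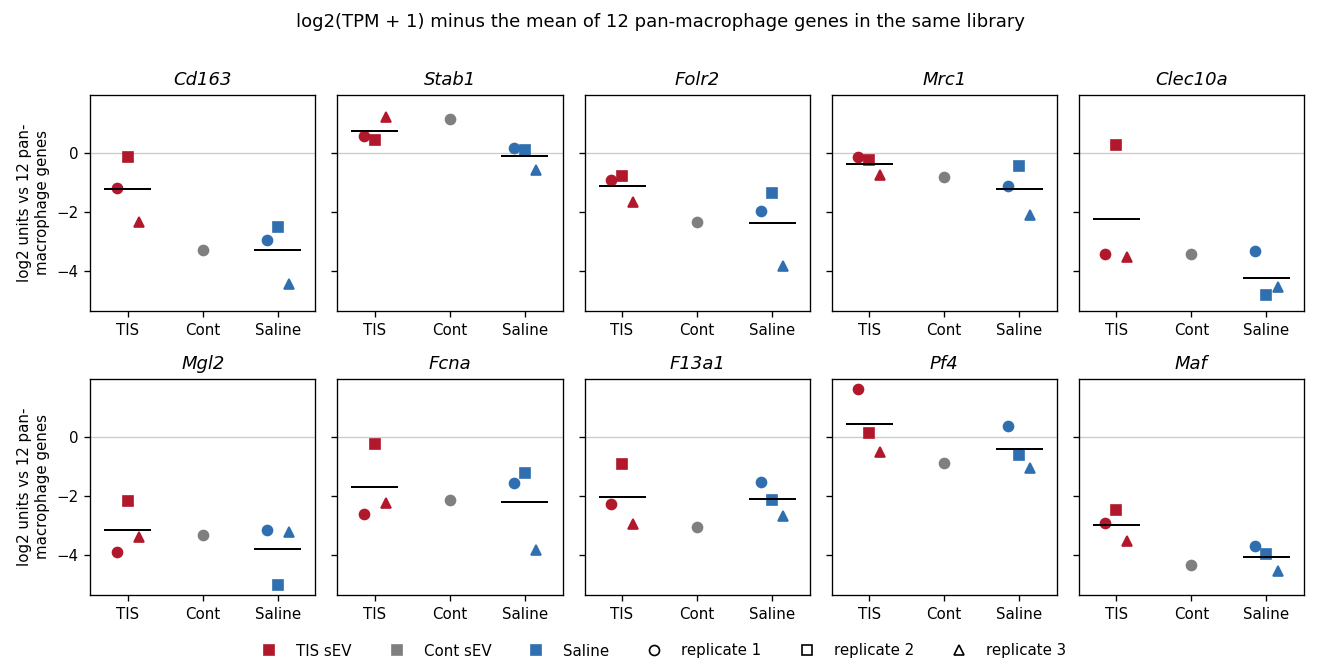
log2(TPM + 1) of each gene minus the mean of 12 general macrophage genes in the same library (vertical axis, log2 units) for the TIS sEV, Cont sEV and Saline libraries. Points are libraries, with a symbol for each replicate number, and black bars are the means of the 3 TIS sEV and of the 3 Saline libraries. TIS sEV and Saline points do not overlap for Cd163, Stab1 and Maf.

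The Cont sEV group is 1 library, so its comparisons take their spread from the other groups. All TIS sEV libraries were above it for 5 of the 10 genes, Cd163, Folr2, F13a1, Pf4 and Maf, where 4.59% of all tested genes lay so, and all were below it for 0 of the 10, where 20% lay so. Relative to the median gene, which shifted by -0.29, the difference TIS sEV minus Cont sEV was 2.03 (SE 0.93) for Cd163. It was 1.34 (SE 0.83) for Maf and 1.17 (SE 0.93) for Folr2. Stab1 was at -0.45 (SE 0.89), and at 0.026 with TIS sEV replicate 1 left out. With TIS sEV replicate 2 left out Cd163 was at 1.32, and Clec10a, Fcna and Mgl2 turned negative, to -0.26, -0.49 and -0.51. The median over the 10 was 1.06, and 0.21 without TIS sEV replicate 2. In limma 0 of the 10 passed, where 27 of all tested genes did (0.224%), 17 of them higher (0.141%) and 10 lower (0.0829%), and 0 of the 10 had an unadjusted p under 0.05, where 1.73% of all tested genes did.

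Cont sEV itself was above all Saline libraries for Stab1 and Clec10a, 2 of the 10, where 14.1% of all tested genes lay so, and below them all for F13a1 and Pf4, 2 of the 10, where 46.4% lay so. Relative to the median gene, which shifted by -0.33, the difference Cont sEV minus Saline was 1.51 (SE 0.89) for Stab1 and -0.67 (SE 0.93) for F13a1. It was 0.27 (SE 0.93) for Cd163, or -0.29 with Saline replicate 3 left out, and -0.02 (SE 0.83) for Maf, or 0.24 with Saline replicate 2 left out. The median over the 10 was 0.33, and -0.27 without Saline replicate 3. In limma 0 of the 10 passed, where 25 of all tested genes did (0.207%), 16 of them higher (0.133%) and 9 lower (0.0746%), and 0 of the 10 had an unadjusted p under 0.05, where 2.33% did. The 3 comparisons share libraries, so their differences are not independent.

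Further genes of resident-type macrophages, 18 in all, were listed with earlier results known, and 10 of them were tested. Ccl8, a chemokine secreted by such cells, was at 1804, 1775 and 2115 TPM in TIS sEV, 709 TPM in Cont sEV and 197, 1240.2 and 227 TPM in Saline. It rose by 2.31 (limma adjusted p = 0.00962), with a difference relative to the median gene of 2.92 (SE 0.55). Without Saline replicate 3, which held one of its lowest values, it was 2.47 and did not pass, nor did it pass without Saline replicate 1 or without TIS sEV replicate 3, or with size factors (adjusted p of 1.28e-10 to 0.879 over all alternatives in limma). Cd209d, a C-type lectin, was at 0.955, 23.5 and 2.53 TPM in TIS sEV, 0.458 TPM in Cont sEV and 1.67, 0.221 and 0.181 TPM in Saline. It rose by 1.82 (limma adjusted p = 0.0163) and by 2.44 relative to the median gene (SE 0.45). With TIS sEV replicate 2 left out the latter was 0.94, and Cd209d missed the threshold. It did not pass either without Saline replicate 2, without Saline replicate 3, with size factors or with a pseudocount of 0.1 (adjusted p of 3.12e-05 to 0.879 over all alternatives in limma).

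The other 8 did not pass. Cbr2, a carbonyl reductase, was at 72.2, 172 and 178 TPM in TIS sEV, 37.5 TPM in Cont sEV and 27.2, 53.2 and 22.5 TPM in Saline. It differed by 1.99 (limma adjusted p = 0.191, and 0.000503 to 0.879 over all alternatives) and by 2.61 relative to the median gene (SE 0.64). Igf1, a growth factor, was at 4.40, 5.91 and 9.56 TPM in TIS sEV, 0.956 TPM in Cont sEV and 1.33, 1.51 and 0.684 TPM in Saline. It differed by 1.77 (limma adjusted p = 0.103, and 0.000708 to 0.879 over all alternatives) and by 2.39 relative to the median gene (SE 0.52). Both passed when TIS sEV replicate 1 or TIS sEV replicate 2 was left out. Selenop, a selenium carrier, was at 43.6, 147 and 85.7 TPM in TIS sEV, 36.0 TPM in Cont sEV and 30.1, 88.8 and 23.3 TPM in Saline, with Saline replicate 2 within the TIS sEV range as for Cd163. Relative to the median gene, the differences of the remaining genes were 1.32 (SE 0.64) for the antibody carrier Fcgrt and 0.76 (SE 0.63) for Gas6, a bridge to dying cells. They were 0.73 (SE 0.64) for Ltc4s, which makes leukotrienes, 0.13 (SE 0.41) for the receptor Nrp1 and -0.18 (SE 0.65) for the ubiquitin ligase Wwp1. Every TIS sEV library was above every Saline library for Ccl8, Cbr2 and Igf1, 3 of 10, where 0.862% of all tested genes lay so. For Wwp1, 1 of 10, every TIS sEV library was below every Saline library, where 13.5% lay so. Mertk, a receptor for dying cells, was at 0.252 to 1.98 TPM and was not tested. The median over the 10 was 1.48, with 9 above the median gene, and 0.87 without TIS sEV replicate 2. In either comparison with Cont sEV 0 genes of any list passed in limma.

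The other macrophage lists lay nearer to the median gene. Of 16 genes of scavenger receptors and of haem and iron handling 10 were tested and 0 passed (1 at an unadjusted p under 0.05), with a median of 0.053, and of -0.025 with quantile normalization. Msr1, the class A scavenger receptor, was at 20.2, 5.80 and 22.6 TPM in TIS sEV, 19.8 TPM in Cont sEV and 16.6, 38.5 and 33.6 TPM in Saline. Hmox1, which breaks down the haem that Cd163 brings in, was at 119, 48.1 and 67.3 TPM in TIS sEV, 65.9 TPM in Cont sEV and 95.1, 108 and 62.5 TPM in Saline. Both overlapped between TIS sEV and Saline. Marco, a scavenger receptor of some resident macrophages, was at 0 to 0.124 TPM, and the iron exporter Slc40a1 at 0 to 0.609 TPM.

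Of 12 genes of alternatively activated macrophages, the state that interleukin 4 induces, 11 were tested and 0 passed (1 at an unadjusted p under 0.05), with a median of 0.79. Retnla, a secreted product of that state, was at 5.70, 93.9 and 37.9 TPM in TIS sEV, 9.24 TPM in Cont sEV and 7.70, 11.8 and 2.13 TPM in Saline. Arg1, an arginine-degrading enzyme, was at 560.4, 503 and 409 TPM in TIS sEV, 273 TPM in Cont sEV and 320.2, 794 and 316 TPM in Saline. Both overlapped between TIS sEV and Saline. Chil3, a chitinase-like protein, was at 3.59 to 49.7 TPM over all libraries, and the chemokine Ccl24 at 4.87 to 16.0 TPM.

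Of 12 genes of recruited monocytes and tumour macrophages 11 were tested (4 at an unadjusted p under 0.05), with a median of 0.077, and of -0.41 with no filter. Of the 11, 7 lay above the median gene. In limma 2 passed, Spp1 and Fn1, both lower, where 0.166% of all tested genes passed as lower. For 3 of the 11 every TIS sEV library was below every Saline library, where 13.5% of all tested genes lay so. Spp1, which encodes osteopontin, was at 1683, 66.7 and 3439 TPM in TIS sEV, 897 TPM in Cont sEV and 3449.5, 4975 and 4686 TPM in Saline. Its difference was -2.56 (limma adjusted p = 0.000581) and -1.94 relative to the median gene (SE 0.52). The latter was -0.65 without TIS sEV replicate 2, where Spp1 did not pass. Fn1, which encodes fibronectin, was at 506, 27.2 and 578 TPM in TIS sEV, 203 TPM in Cont sEV and 604, 982 and 1158 TPM in Saline. Its difference was -2.13 (limma adjusted p = 0.0467) and -1.51 relative to the median gene (SE 0.58). The latter was -0.51 without TIS sEV replicate 2, where Fn1 did not pass. Spp1 did not pass without Saline replicate 2 or 3, Fn1 did not pass without any 1 of the 3 Saline libraries, and neither passed with size factors (adjusted p of 2.33e-06 to 0.638 for Spp1 and 0.0035 to 0.879 for Fn1 over all alternatives in limma). Tumour cells and fibroblasts make both proteins as well. The monocyte genes Ly6c2 and Ccr2 were at 2.41 to 31.2 and 0.224 to 4.36 TPM, and the lipid-linked macrophage genes Trem2 and Gpnmb at 18.7 to 58.3 and 0.0921 to 6.47 TPM.

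Of 14 macrophage transcription factors 11 were tested and 0 passed (1 at an unadjusted p under 0.05), with a median of 0.30, and of -0.19 with no filter. Spi1, which encodes PU.1, was at 23.8, 23.5 and 35.2 TPM in TIS sEV, 17.9 TPM in Cont sEV and 17.3, 23.5 and 19.6 TPM in Saline, and Nr1h3, a sterol-sensing receptor, at 3.20, 3.39 and 4.72 TPM in TIS sEV, 2.46 TPM in Cont sEV and 1.62, 3.02 and 1.96 TPM in Saline. For both, 2 of the 11 tested, every TIS sEV library was above every Saline library, by a margin for Spi1 that is lost in rounding. Of all tested genes 0.862% lay so. For 1 other of the 11 every TIS sEV library was below every Saline library, where 13.5% of all tested genes lay so. Irf4, a factor of interleukin 4 responses, was at 0.0463 to 0.288 TPM. Of 11 factors that feed or recruit macrophages 9 were tested and 0 passed (1 at an unadjusted p under 0.05), with a median of 0.12, and of -0.023 with size factors and -0.13 with TIS sEV replicate 1 left out. Csf1, the macrophage growth factor, was at 31, 1.94 and 24.9 TPM in TIS sEV, 27.3 TPM in Cont sEV and 24.7, 42.4 and 36.8 TPM in Saline, and Il34, which binds the same receptor, at 21.7, 3.80 and 21.6 TPM in TIS sEV, 28.1 TPM in Cont sEV and 20.4, 32.7 and 19.4 TPM in Saline. TIS sEV replicate 2 was the lowest library for both. Il10, a cytokine that induces Cd163, was at 47.9, 1.72 and 4.15 TPM in TIS sEV, 4.37 TPM in Cont sEV and 4.89, 11.5 and 2.55 TPM in Saline, with TIS sEV replicate 1 the highest.

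Of other cell types, 0 genes passed in limma against Saline. The median relative to the median gene was 0.42 over 5 tested of 11 endothelial genes, with a range of -0.21 to 0.80 over the alternatives. It was 0.30 for the 1 tested of 10 platelet genes (-0.19 to 0.83), -0.063 over 3 of 10 dendritic cell genes (-0.55 to 0.14) and 0.52 over 6 of 10 T cell genes (0.026 to 0.75). It was 0.33 over 6 of 8 fibroblast genes (-0.16 to 0.78) and 1.39 over 2 of 7 fat cell genes (0.054 to 2.43, lowest without TIS sEV replicate 2). It was 0.59 over 3 of 7 skin genes (and at its lowest -0.012, again without that library) and -0.47 over all 8 epithelial genes (-0.96 to -0.084). The sign of the endothelial, platelet, dendritic cell, fibroblast and skin medians thus turned in at least 1 alternative. Of these lists, 1 fat cell gene and 3 epithelial genes had an unadjusted p under 0.05 and none of the others did. The integrin Itgax was at 0.238 to 5.52 TPM, the fibroblast genes Pdgfra, Dpt and Dcn at 0.11 to 8.18, 0.345 to 2.71 and 1.92 to 21.7 TPM, the fat cell gene Fabp4 at 8.95 to 38.4 TPM, and the skin keratins Krt5 and Krt14 at 0 to 1.41 and 3.27 to 67.7 TPM.

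**Figure D4:**
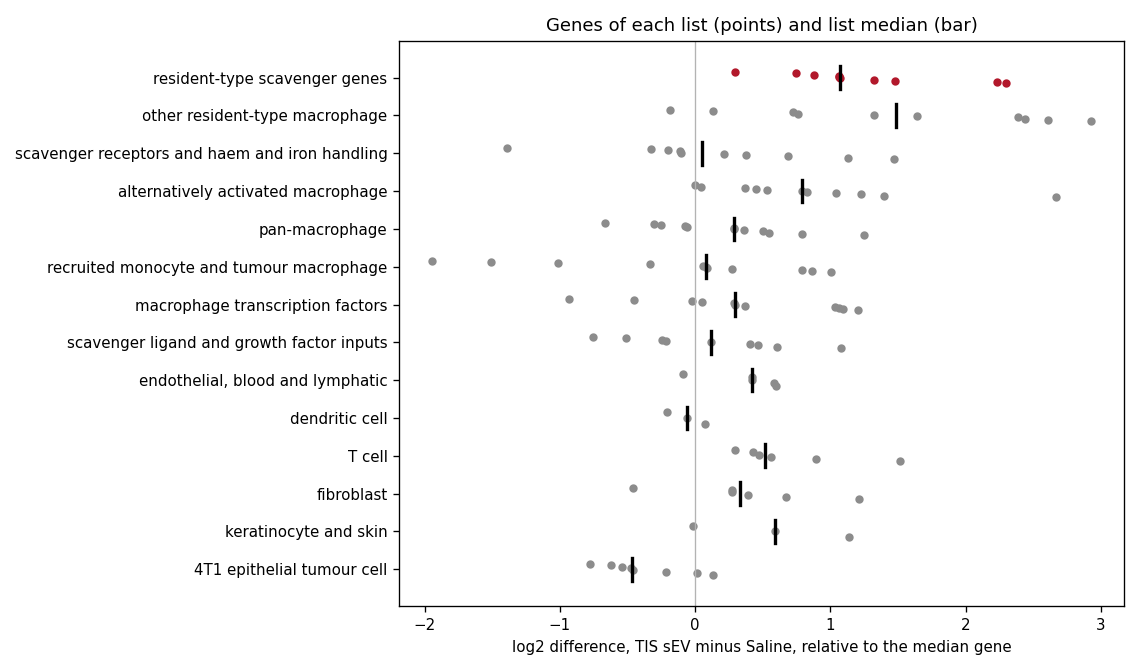
Difference of each tested gene, TIS sEV minus Saline, on the log2(TPM + 1) scale relative to the median gene (horizontal axis), by gene list (rows). Points are genes, red for the 10 scavenger genes, and black bars are list medians, at 1.07 for the 10 scavenger genes, 1.48 for the 10 tested further resident-type genes and 0.29 for the 12 general macrophage genes.

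The genes whose pattern was most like that of the set were sought among tested genes of at least 5 TPM on average without a predicted or clone name. The measure was Pearson's r over the 7 libraries between the log2 value after size factors and the mean standardised value of the 10 genes, and it describes libraries that share the outlying TIS sEV replicate 2. The 8 closest were Pltp at 0.994, Selenop at 0.992, Rnase2a at 0.988, Rit1 at 0.986, Ap2a2 at 0.976, Retnla at 0.976, S100a1 at 0.975 and Tprgl at 0.975, and on the 6 libraries without TIS sEV replicate 2 their r was 0.917 to 0.983. Pltp, a phospholipid transfer protein, was at 23.2, 29.3 and 34.9 TPM in TIS sEV, 15.4 TPM in Cont sEV and 15.2, 31.7 and 12.1 TPM in Saline. Rnase2a, a secreted ribonuclease, was at 27.4, 153 and 51.8 TPM in TIS sEV, 17.3 TPM in Cont sEV and 16.0, 31.6 and 8.87 TPM in Saline. Before size factors, Rit1, S100a1 and Tprgl were lowest of all in TIS sEV replicate 2, at 20.0, 94.3 and 18.8 TPM. Their mean TPM was lower in TIS sEV than in Saline. Within the set, r with the mean of the other 9 was highest for Maf and Cd163, at 0.955 and 0.953, and lowest for Mgl2, at 0.587. Without TIS sEV replicate 2 it was highest for Folr2 and Mrc1, at 0.914 and 0.903, followed by Maf and Cd163 at 0.863 and 0.86, and it was 0.38 for Pf4, 0.212 for F13a1 and -0.072 for Mgl2.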

How the data were processed

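RNA was sequenced in 7 tumour libraries, and the authors deposited gene-level TPM. The submitters' processing notes name, in no stated order, Salmon 1.4.0, Trim Galore 0.6.6, DESeq2 1.28.0, FastQC 0.11.9 and the build GRCm38.p6. TPM carries no read depth, so no counting error is given, and a large share of ribosomal RNA lowers every other value of that library.

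Symbols and positions came from GENCODE M21, which held 55227 of the 55487 identifiers. limma 3.58.1 (R 4.3.3) was run on log2(TPM + 1), a scale that understates changes of low genes, for the 12058 genes at 1 TPM or more in 3 or more libraries. The model had 1 mean per group, 4 residual degrees of freedom, the intensity trend, two-sided tests and Benjamini-Hochberg adjustment over all tested genes at 0.05. Its p-values test the log2 difference itself, and its SEs belong to that difference, before the median gene is subtracted. The prior degrees of freedom came out infinite, and the spread therefore depends on level alone. On simulated data for TIS sEV against Saline (12058 genes), calls were made for 55% of genes changed by 2 and 100% of those changed by 4 on the log2 scale, with 4 false calls. The simulated noise was normal and independent, with no outlying library and no shift of the median gene. These shares therefore need not hold for the real libraries.

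The 10 genes and all 15 lists were chosen with earlier results of these data known. Named genes are the 10, list genes marked for naming or passing, and the 8 most alike, and a few of the list genes are not reported here. Transcripts were compared by runs of 31 bases, with both strands of other transcripts searched. Protein sequences were not used here. Alternatives were other scalings, a pseudocount of 0.1, no filter, a replicate block, a fit without Cont sEV, and each replicate left out.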

Additional observations from a re-analysis of the deposited data

How the results depend on the processing

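Over the whole table the scaling decided how many genes passed. For TIS sEV against Saline the 62 calls became 0 with size factors, the coding total, quantile normalization or no filter (lowest limma adjusted p of 0.107 to 0.211, with 1230 to 1765 genes at an unadjusted p under 0.05), 14 with the replicate block, and 7 (Saline replicate 3) to 353 (TIS sEV replicate 1) when the library named was left out. For TIS sEV against Cont sEV the 27 became 1, 2 and 1 with those scalings, 246 with no filter, 5 with the replicate block and 10 (without Saline replicate 3) to 103 (without TIS sEV replicate 2). For Cont sEV against Saline the 25 became 1, 2 and 2, then 233 with no filter, 9 with the replicate block and 11 (without Saline replicate 2) to 197 (without TIS sEV replicate 2). List genes passing against Saline numbered 4, or 0 with those scalings or no filter, 1 with the replicate block and 0 (without Saline replicate 3) to 9 (without TIS sEV replicate 1), and with Cont sEV 0, or 0 to 5 (TIS sEV against it) and 0 to 3 (it against Saline) without 1 library. The 10 scavenger genes had 0 calls, or 0 to 1 without 1 library. Their median against Saline stayed between 0.58 with no filter and 1.62 without TIS sEV replicate 1, and that relative to general macrophage genes between 0.57 and 1.17. Nrp1, at 0.13, turned negative, at -0.013 with size factors, -0.038 with a pseudocount of 0.1 and -0.36 with no filter, and was at -0.11 to 0.47 without 1 library. Wwp1, at -0.18, was at -0.45 to 0.023 without 1 library. The causes were not tested. Whether replicate numbers pair the libraries is not known. Deviations of same-numbered TIS sEV and Saline libraries correlated at -0.38, -0.0085 and 0.080 across genes, and those of differently numbered ones at -0.34 to 0.37. With 3 libraries a group this cannot show that pairing is absent, and the replicate block is given here only. Read depth is unknown, and 3 libraries a group and 1 of Cont sEV limit the precision.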
